A study of Mus musculus with 12 samples.

Results

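The mitochondrial ribosomal proteins examined here were the 78 genes of the count table whose symbol is Mrpl or Mrps followed by a number and at most 1 letter, out of 54446 genes in all. They build the ribosome that works inside mitochondria. RNA was sequenced from mouse bone marrow-derived macrophages, which are macrophages grown from marrow with the growth factor M-CSF. The mice carried NLRC3 fl/fl alleles, in which the innate immune receptor gene Nlrc3 is flanked by sites for Cre recombinase, so all 4 groups share these alleles. The KO mice, called NLRC3ΔMac in the labels, were LysM-Cre+, and LysM drives Cre mainly in myeloid cells. The WT mice were LysM-Cre-. The groups were KO with LPS (lipopolysaccharide, a bacterial cell wall component) for 12 h, KO in medium, WT with LPS for 12 h and WT in medium, with 3 libraries each and 12 in all. The labels give no age, do not say whether the 3 libraries of a group came from separate mice and give no clone or pool, so p-values measure the spread between these libraries, which may be technical.

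Nuclear genes encode all proteins of the mitochondrial ribosome, which are made in the cytosol and imported, whereas its rRNAs come from mitochondrial DNA. The large subunit joins amino acids and the small subunit reads the mRNA. Many subunits have a bacterial counterpart, and others occur only in mitochondrial ribosomes. The ribosome makes the few proteins encoded in mitochondrial DNA, all of them parts of the respiratory chain and ATP synthase, and activated macrophages are known to shift from respiration towards glycolysis. The motifs of the transcription factors NRF1, GABPA (an ETS factor) and YY1 are known from promoters of nuclear genes for mitochondria.

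The labels were checked first. Nlrc3 stood at 12.95, 6.69 and 4.91 normalised CPM in the libraries labelled KO LPS 1 to 3, at 1.42, 1.21 and 1.11 in those labelled KO medium, at 1.04, 4.32 and 1.71 in WT LPS and at 7.31, 12.3 and 7.10 in WT medium. Normalised CPM are counts scaled to library size (CPM) after scaling by trimmed-mean (TMM) factors. The targeted gene was therefore as high in the libraries labelled KO LPS as in WT medium, against the KO label, and directions below are those of libraries labelled so. Nos2, which LPS induces in macrophages, ranged from 0.560 to 4.51 normalised CPM in libraries labelled KO LPS, from 1635 to 3862 in KO medium, from 818 to 3306 in WT LPS and from 3.54 to 5.72 in WT medium, so it also went against the LPS and medium labels of the KO libraries. Gene counts do not show which exons were read. Because of this, the libraries labelled KO medium were also set against WT LPS, and those labelled KO LPS against WT medium. Library totals ran from 13082947 to 20960505 counts. Marker levels are given as CPM of the library total, without TMM factors. None of the 10 macrophage markers listed was under 1 CPM in all libraries of a group, and their summed level was 21367 to 35049 in the libraries labelled KO LPS, 9777 to 12788 in KO medium, 12115 to 18655 in WT LPS and 32508 to 35995 in WT medium. The 14 neutrophil markers summed to 1422 to 7653 CPM in libraries labelled KO LPS, 1972 to 3896 in KO medium, 1747 to 6238 in WT LPS and 979.8 to 1467 in WT medium, with Ly6g under 1 in all libraries of the last 3 groups. B cell, T and NK cell, stromal, platelet and dendritic cell marker lists each summed to at most 787 CPM in any library, but some moved with the groups. Platelet markers summed to 548 to 787 CPM in the libraries labelled KO LPS, 161 to 529 in KO medium, 143 to 494 in WT LPS and 153 to 455 in WT medium. Of 5 such markers tested, 3 were higher and 0 lower in KO LPS against WT LPS, and 2 higher and 0 lower in KO LPS against KO medium (edgeR). Of all genes, 10.4% were higher and 13.7% lower in the first of these comparisons, and 15.1% and 15.3% in the second. Of 13 neutrophil markers tested, 4 were higher and 1 lower in the first, and 5 and 1 in the second. For the 10 macrophage markers the counts were 2 and 2, and 1 and 2. Of 10 stromal markers, 0 were higher and 4 lower in KO LPS against WT LPS, with all 10 log2 folds below 0. All 10 stromal folds were above 0 in WT LPS against WT medium (median 1.75), where 1 marker was called higher, against 11.9% of all genes. The summed B cell markers reached 87.1 CPM and those of T and NK cells 223 CPM, both in KO LPS 3, and 2 of 6 B cell markers were higher in KO LPS against each of WT LPS and KO medium. In KO LPS 1 the B cell markers summed to 13.06 CPM, against 85.46 in KO LPS 2. Neutrophil markers summed to 1422 CPM in KO LPS 1, against 6225 and 7653 in KO LPS 2 and 3. Its T and NK cell, dendritic cell and macrophage sums were also the lowest of the group. Its platelet and stromal sums were the highest of the group, at 787 and 109 CPM. KO LPS 1 was also above the other 2 libraries of its group in 74 of the 77 members, as set out below. The part of these differences in the results below was not tested. In bulk RNA, fewer cells of a type and less RNA per cell cannot be told apart.

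Few single members were called between groups that differ in 1 label, and how many depended on the setting. Mrpl39 was called in all 4 such comparisons, Mrpl52 and Mrpl13 in 2 and Mrps2 in 1. Members that were not called may still have changed. The ratio of large- to small-subunit counts, chosen after values were seen and not tested, differed between some groups without overlap. Windows around the RefSeq start are shown for Mrpl39, the member called most often, for Mrpl52, the called member with the largest fold, and for Mrps2 and Mrps18b, small-subunit genes whose interaction has the opposite sign. No window was listed for Mrpl13. Each is the 300 base RefSeq window of build GRCm38.p6 from 250 bases before to 50 after the annotated start, written 5′ to 3′ on the gene's strand. The windows are chr16:84735195-84735494 (minus strand) for Mrpl39, chr14:54426659-54426958 (plus strand) for Mrpl52, chr2:28467816-28468115 (plus strand) for Mrps2 and chr17:35916391-35916690 (minus strand) for Mrps18b. The GENCODE M21 gene models used for positions here start elsewhere for a pair of these genes: the Mrpl39 window lies wholly inside its gene model, and the Mrps18b window wholly before its start. Capitals mark matches, on either strand, to GCATGCGC (NRF1), CCGGAAG (ETS), AAGATGGC (YY1) or CACGTG (E-box), or to the longer NF-kB and ISRE motifs.
Mrpl39: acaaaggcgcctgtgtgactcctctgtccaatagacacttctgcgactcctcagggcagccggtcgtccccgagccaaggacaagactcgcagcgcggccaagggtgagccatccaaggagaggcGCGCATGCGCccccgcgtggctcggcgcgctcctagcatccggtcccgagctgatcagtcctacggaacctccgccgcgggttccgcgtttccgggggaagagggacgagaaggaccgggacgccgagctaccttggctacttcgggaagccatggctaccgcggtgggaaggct
Mrpl52: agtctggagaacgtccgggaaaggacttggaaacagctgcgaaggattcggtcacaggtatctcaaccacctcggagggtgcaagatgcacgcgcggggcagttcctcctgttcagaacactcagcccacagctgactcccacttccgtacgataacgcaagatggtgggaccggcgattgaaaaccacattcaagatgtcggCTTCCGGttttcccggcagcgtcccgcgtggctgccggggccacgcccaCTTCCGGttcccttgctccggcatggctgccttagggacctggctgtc
Mrps2: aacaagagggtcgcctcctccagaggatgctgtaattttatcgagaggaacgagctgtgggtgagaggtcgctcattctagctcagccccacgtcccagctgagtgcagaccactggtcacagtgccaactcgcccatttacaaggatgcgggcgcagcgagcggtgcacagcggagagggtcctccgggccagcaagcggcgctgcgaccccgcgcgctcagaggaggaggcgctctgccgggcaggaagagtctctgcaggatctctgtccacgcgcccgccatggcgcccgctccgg
Mrps18b: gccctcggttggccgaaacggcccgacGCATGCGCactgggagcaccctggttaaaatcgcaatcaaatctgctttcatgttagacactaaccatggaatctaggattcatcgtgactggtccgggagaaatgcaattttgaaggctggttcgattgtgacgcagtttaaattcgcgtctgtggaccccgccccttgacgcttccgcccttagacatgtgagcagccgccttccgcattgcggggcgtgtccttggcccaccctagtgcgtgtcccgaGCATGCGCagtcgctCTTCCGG

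The Mrpl39 window holds a pair of overlapping NRF1 matches, the Mrpl52 window 2 ETS matches, the Mrps18b window 2 NRF1 matches and an ETS match, and the Mrps2 window none of the 6 motifs. A window was listed for 69 of the 78 members, and the first one listed was taken. The ETS letters occurred in 25 of these 69 (36.2%), against 9.12% of the windows of all 27025 genes. The YY1 letters occurred in 17.4% of the members' windows, against 2.88% of all, and the NRF1 letters in 11.6%, against 2.8%. The E-box occurred in 7.25% of the members' windows, against 7.24% of all, the ISRE in 4.35%, against 3.49%, and the NF-kB motif in 0 of 69, against 0.144% of all. In 32 of the 69 windows none of the NRF1, ETS and YY1 letters was present. A match is a run of letters and not a measured binding site. No match says only that these letters are not in this window.

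Levels spanned a wide range within the family. Per length, the mean FPKM (fragments scaled to gene length and library size) over the 12 libraries ran from 1.61 to 73.0, with a median of 10.5 over the 77 members above 0. The small-subunit genes Mrps35 and Mrps10, the large-subunit gene Mrpl47 and the small-subunit gene Mrps5 were the lowest, at 1.61 ± 0.691, 2.27 ± 0.962, 2.36 ± 1.19 and 2.80 ± 1.22 FPKM (SD, n = 12). The highest were Mrpl52 at 73.0 ± 57.9, Mrps21 at 62.7 ± 23.4, Mrpl54 at 55.7 ± 26.6 and Mrpl27 at 55.2 ± 26.6 FPKM (SD, n = 12). These SDs hold differences between groups as well as between libraries, and differences in level between the 4 genes were not tested. The 4 highest are short, with 739 to 1109 bases of gene model, against a median of 2255 bases for the members and 4006 bases for all genes tested. The 4 lowest are long, with 4419 to 8631 bases, so a low FPKM need not mean few counts. Mrpl53, a large-subunit protein near the stalk that recruits translation factors, had 0 counts in every library. In the GENCODE M21 annotation of GRCm38, 88.0% of its 790 exon bases lie on the same strand in the readthrough gene model Gm42688, which had 0 to 68 counts a library, and the deposited counts do not show to which of them such reads were given. The 77 other members passed the filter on low counts, with 45 to 3437 counts a library.

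**Figure D1:**
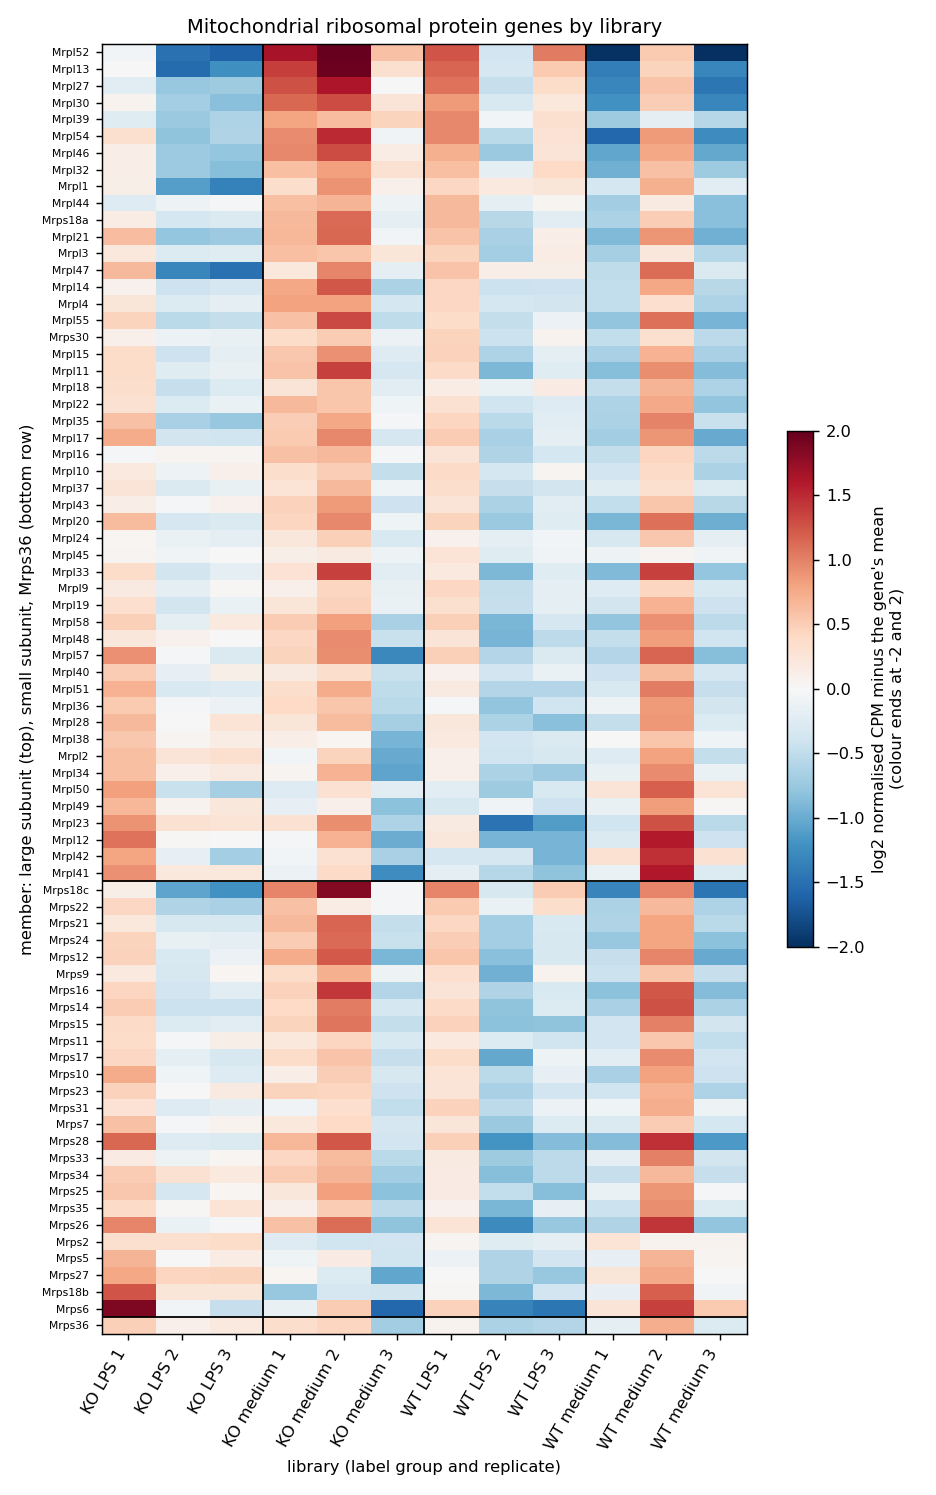
Log2 normalised CPM of the 77 members tested (rows, ordered by interaction fold within subunits) in 12 libraries (columns), each minus the member's mean over the libraries. In each group 1 library is redder than the other 2 in most rows, and the top rows (Mrpl52, Mrpl13, Mrpl27, Mrpl30 and Mrpl39) are higher in WT LPS and in the libraries labelled KO medium.

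Within every label group, nearly the whole family moved together from library to library. The library labelled KO LPS 1 was above the other 2 of its group in 74 of the 77 members, KO medium 2 in 69, WT LPS 1 in 75 and WT medium 2 in 76. For 65 of the 77 (84.4%) this held in all 4 groups, against 15.5% of all 13773 genes tested. Cytosolic ribosomal proteins, which build the ribosome outside mitochondria, did so in 90.9% of 77 genes, and nuclear subunits of the respiratory chain in 76.2% of 63, so the pattern was shared with other mitochondrial and ribosomal genes. The shortest 10% of all genes tested also stood above their group means there. Their median log2 deviations were 0.33, 0.33, 0.45 and 0.76 in these libraries in the order given, against 0.40, 0.48, 0.52 and 0.85 for the members. These 4 libraries were picked, after their values were seen, as those that leaned most towards short genes in their group. Spearman's rho across genes compared a gene's deviation from its group mean with its length. It was -0.21, -0.30, -0.33 and -0.44 in that order, as a description over genes that share a library. The members had a median length of 2255 bases, against 4006 for all genes tested. Their high values in these libraries are therefore not independent of how the libraries were picked. The lean was graded, since KO medium 1, at -0.23, exceeded KO LPS 1 in size, and the other 7 libraries ran from -0.06 to 0.40. The part of this lean in the family's levels was not tested. Counts of called members are also given without these 4 libraries, called short-leaning below, which leaves 2 a group. Shares of all genes called are those of the main fit with all 12 libraries. Counts of members and of other gene lists from other settings have no share of all genes beside them. The labels' column names give WT LPS 1 and WT medium 2 the shared number 45, and WT LPS 2 and WT medium 3 the shared number 50, without saying what it means. Deviations from the group mean correlated at 0.57 and 0.45 in these pairs. Pairs without a shared number reached 0.46 between WT LPS and WT medium, and 0.63 between KO LPS and WT medium. A fit with the shared numbers as a block is given where it ends a member's call.

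**Figure D2:**
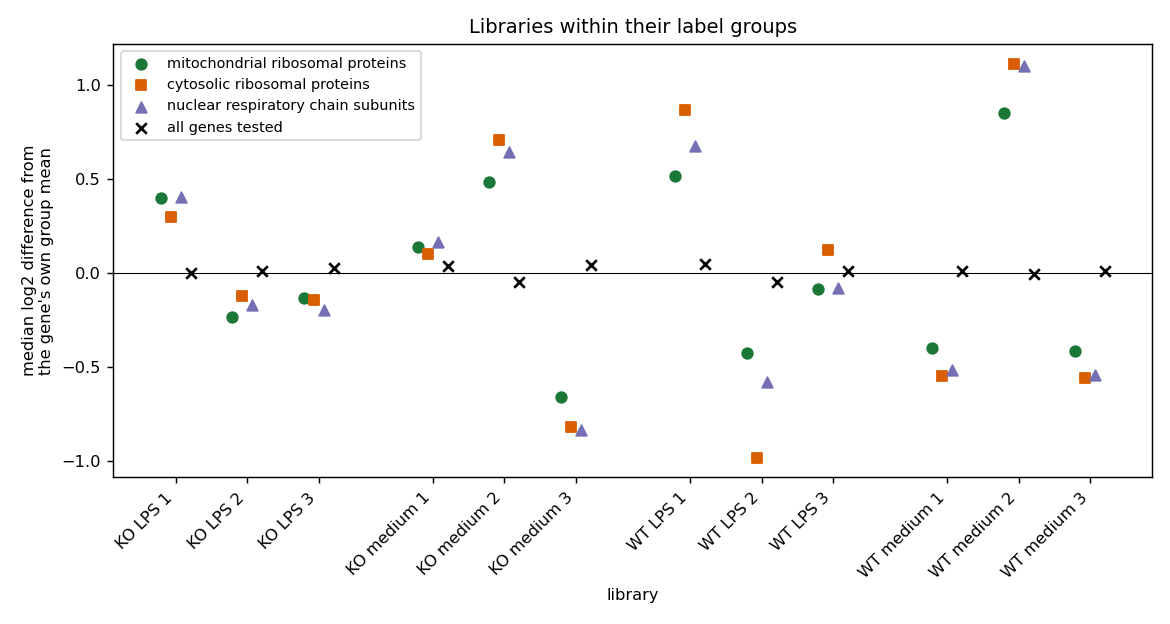
Median log2 difference of each library from the gene's own label-group mean, for the members, cytosolic ribosomal proteins, nuclear respiratory chain subunits and all genes tested. The 3 gene groups lie together above 0 in KO LPS 1, KO medium 2, WT LPS 1 and WT medium 2 (members 0.40, 0.48, 0.52 and 0.85) while all genes lie near 0.

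The SD of log2 normalised CPM within groups was 0.58 for the median member. It was smallest for Mrps2, at 0.11, and for Mrpl45, at 0.16, and these were the only members under 0.25. It was over 1 for Mrpl52, Mrps28 and Mrps6. Mrpl45, which lines the exit tunnel for new proteins and anchors the ribosome to the inner membrane, stood at 36.3, 33.3 and 34.96 normalised CPM in libraries labelled KO LPS, 38.2, 39.7 and 32.8 in KO medium, 42.3, 29.7 and 33.5 in WT LPS and 32.7, 36.5 and 33.4 in WT medium. All 4 groups overlapped, and its 4 log2 folds between groups that differ in 1 label lay between -0.08 and 0.11, each ± 0.21 (SE). The highest library of Mrpl45 was 1.43 times its lowest, whereas the median member had a ratio of 3.50 and Mrpl52 one of 23.7.

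By its labels, the comparison of KO with WT under LPS would ask what loss of Nlrc3 changes in stimulated cells. The values went against these labels. Mean Nlrc3 was 8.18 normalised CPM in KO LPS against 2.36 in WT LPS, and mean Nos2 2.07 against 2314. The results below therefore describe libraries labelled so and do not answer that question. At a Benjamini-Hochberg adjusted p under 0.05 over 13773 genes (edgeR's quasi-likelihood test), 0 members were higher and 1 was lower, against 10.4% of all genes higher and 13.7% lower (24.1% in all). The member was Mrpl39, a large-subunit protein with no bacterial counterpart (chromosome 16, 84717576 to 84735742, minus strand, GRCm38). The libraries labelled KO LPS had 27.5, 19.4 and 21.2 normalised CPM of it, against 63.0, 31.4 and 40.6 in those of WT LPS. The groups did not overlap, and the log2 fold was -0.99 ± 0.29 (SE; edgeR, Benjamini-Hochberg adjusted p = 0.0285). The call ended without KO LPS 2 (edgeR adjusted p = 0.118), KO LPS 3 (0.0986), WT LPS 1 (0.119) or WT LPS 3 (0.0593). It was also lost in 5 of 11 other settings, among them the shared numbers as a block (0.08) and the compared groups only (0.0783). Without KO LPS 1 there were 3 calls, all lower. The median log2 fold of the 77 members was 0.16 (-0.07 to 0.47 when 1 library was left out), and that of all genes 0.06. By subunit, the median was 0.05 over 50 large-subunit members and 0.32 over 26 small-subunit members. Libraries of the groups did not overlap for 12 members, 10 higher and 2 lower, against 18.3% of all genes higher and 19.7% lower (38% in all). With the 4 short-leaning libraries left out, 1 member was higher and 7 were lower. Scaled by library size alone, 20 were higher and 0 lower, but the median of all genes then stood at 0.57 and that of the members at 0.71.

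In medium, 3 members were higher in the libraries labelled KO and 0 lower, against 14% of all genes higher and 12.3% lower (26.3% in all). All 3 are large-subunit genes. Mrpl39 stood at 56.1, 49.6 and 44.1 normalised CPM in the libraries labelled KO medium, against 19.9, 28.7 and 21.8 in WT medium, a log2 fold of 1.09 ± 0.29 (edgeR adjusted p = 0.0173). Mrpl52, found only in mitochondrial ribosomes (chromosome 14, 54426909 to 54429756, plus strand), stood at 190, 347 and 91.7 normalised CPM in KO medium, against 15.4, 87.9 and 14.6 in WT medium. Its groups did not overlap, though KO medium 3 lay only just above WT medium 2, and the log2 fold was 2.42 ± 0.79 (edgeR adjusted p = 0.0404). Mrpl13, the counterpart of bacterial ribosomal protein L13 (chromosome 15, 55534094 to 55557748, minus strand), stood at 118, 177 and 56.8 normalised CPM in the libraries labelled KO medium, against 17.5, 61.8 and 18.5 in WT medium. These groups overlapped, with WT medium 2 above KO medium 3, and the log2 fold was 1.85 ± 0.63 (edgeR adjusted p = 0.0472). All 3 calls ended without KO medium 1, KO medium 2, WT medium 1 or WT medium 3 (highest edgeR adjusted p 0.0785 for Mrpl39, 0.161 for Mrpl52 and 0.188 for Mrpl13), and without WT medium 2 the calls numbered 18, all higher. In 11 other settings the call was lost in 3 for Mrpl39, 2 for Mrpl52 and 5 for Mrpl13. The median log2 fold was 0.27 (-0.09 to 0.76 when 1 library was left out), against -0.02 for all genes. Libraries did not overlap for 5 members, 3 higher and 2 lower, against 21.2% of all genes higher and 21.5% lower (42.6% in all). Leaving out the 4 short-leaning libraries, 16 members were higher and 0 lower. Scaled by library size alone, 0 were higher and 19 lower, with the median of all genes at -0.85 and that of the members at -0.53.

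The comparison of LPS with medium in WT asked what the stimulus does where Nlrc3 is intact. In this comparison 1 member was higher and 0 lower, against 11.9% of all genes higher and 6.46% lower (18.3% in all). It was again Mrpl39, with the WT LPS and WT medium values given above, which did not overlap, and a log2 fold of 0.94 ± 0.29 (edgeR adjusted p = 0.042). The call was lost on leaving out WT medium 1 (edgeR adjusted p = 0.154), WT medium 3 (0.134), WT LPS 1 (0.208), WT LPS 3 (0.102) or the 4 short-leaning libraries (0.0564). In all it was lost in 6 of 11 settings other than leaving out 1 library, with the highest adjusted p at 0.306 for library size only, and without WT medium 2 there were 4 calls, all higher. The median log2 fold was -0.17 over the members (-0.53 to 0.32 when 1 library was left out) and -0.06 over all genes. For the small subunit it was -0.37, with 24 of 26 folds below 0, and for the large subunit it was -0.07, with 32 of 50 below 0. The difference between the subunits was not tested. Libraries did not overlap for 4 members, 1 higher and 3 lower, against 18.5% of all genes higher and 15.4% lower (33.9% in all). Without the 4 short-leaning libraries 6 members were higher and 1 lower. Scaled by library size alone, 0 were higher and 20 lower, with the median of all genes at -0.64 and that of the members at -0.72.

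Between the libraries labelled KO LPS and KO medium, 1 member was higher and 3 were lower, against 15.1% of all genes higher and 15.3% lower (30.4% in all). The 3 lower members were those already named. Mrpl52 stood at 58.8, 21.6 and 19.9 normalised CPM in libraries labelled KO LPS, all below the lowest KO medium library, with a log2 fold of -2.65 ± 0.79 (edgeR adjusted p = 0.0257). Mrpl13 stood at 45.3, 15.7 and 19.4 normalised CPM in libraries labelled KO LPS, also without overlap, with a log2 fold of -2.13 ± 0.63 (edgeR adjusted p = 0.0247). Mrpl39 had a log2 fold of -1.14 ± 0.29 (edgeR adjusted p = 0.0125). The higher member was Mrps2, the small-subunit counterpart of bacterial S2 (chromosome 2, 28468066 to 28471178, plus strand). It stood at 23.6, 23.6 and 24.4 normalised CPM in libraries labelled KO LPS, against 15.8, 14.3 and 14.6 in KO medium, with a log2 fold of 0.68 ± 0.21 (edgeR adjusted p = 0.0269). It had the smallest spread of the family, and its groups did not overlap. All 4 calls ended without KO LPS 2 or KO LPS 3 (edgeR adjusted p from 0.0519 to 0.0973), those of Mrpl52, Mrpl13 and Mrps2 also without KO medium 1 or KO medium 2 (0.0554 to 0.102), and that of Mrps2 without KO medium 3 (0.0648). In 11 other settings the call was lost in 3 for Mrps2, 2 for Mrpl39, 1 for Mrpl13 and 0 for Mrpl52. Without KO LPS 1 there were 9 calls. The median log2 fold was -0.30 over the members and 0.04 over all genes. Libraries did not overlap for 11 members, 3 higher and 8 lower, against 23.3% of all genes higher and 22.5% lower (45.8% in all). In the fit lacking the 4 short-leaning libraries, 1 member was higher and 14 were lower. Scaled by library size alone, 17 were higher and 1 lower, with the median of all genes at 0.78 and that of the members at 0.46.

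**Figure D3:**
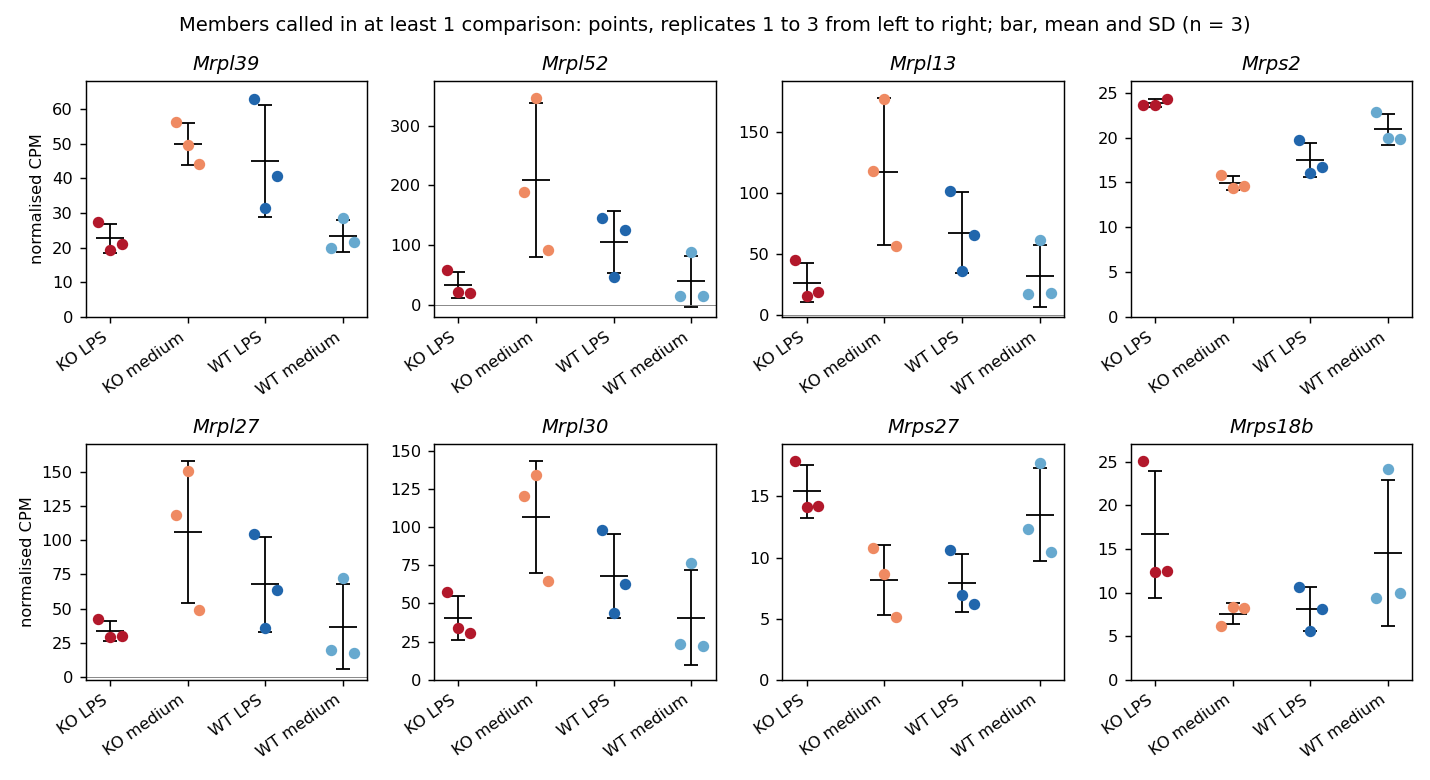
Normalised CPM of the 8 members called in at least 1 comparison, by label group, with each library as a point and the mean and SD (n = 3) as a bar; each panel has its own axis. Mrpl39, Mrpl52, Mrpl13, Mrpl27 and Mrpl30 have higher means in the KO medium and WT LPS libraries, and Mrps2, Mrps27 and Mrps18b have lower means there.

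The interaction, the LPS fold in the libraries labelled KO minus that in WT, was called for 8 members, 3 higher and 5 lower, against 20.5% of all genes higher and 20.6% lower (41.1% in all). The 5 lower were large-subunit genes and the 3 higher were small-subunit genes. Mrpl27, whose bacterial counterpart L27 lies near the site of peptide bond formation, stood at 42.3, 29.0 and 30.0 normalised CPM in libraries labelled KO LPS, 118, 150 and 49.0 in KO medium, 104, 35.6 and 63.5 in WT LPS and 19.9, 72.7 and 17.97 in WT medium. Its groups overlapped in WT and not in KO, and the interaction was -2.53 ± 0.83 (edgeR adjusted p = 0.0282). Mrpl30, the counterpart of bacterial L30, stood at 57.2, 33.7 and 30.3 normalised CPM in libraries labelled KO LPS, 120, 134 and 64.6 in KO medium, 98.0, 43.7 and 62.5 in WT LPS and 23.4, 76.5 and 22.0 in WT medium, again with overlap in WT only (-2.14 ± 0.72, edgeR adjusted p = 0.0324). Both of these calls ended on leaving out KO LPS 2 or 3, KO medium 1 or 2, WT LPS 1 or 3, or WT medium 1 or 3 (edgeR adjusted p from 0.0549 to 0.0939). Mrpl39 (-2.08 ± 0.41, edgeR adjusted p = 0.00182), Mrpl52 (-4.08 ± 1.10, 0.0109) and Mrpl13 (-3.19 ± 0.88, 0.0124) stayed called without any 1 of the 12 libraries. With library size only, Mrpl39, Mrpl13, Mrpl27 and Mrpl30 were no longer called.

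Of the small-subunit genes with a positive interaction, Mrps27, an RNA-binding protein of the small subunit in human cells, stood at 17.9, 14.1 and 14.2 normalised CPM in libraries labelled KO LPS, 10.8, 8.68 and 5.11 in KO medium, 10.6, 6.91 and 6.17 in WT LPS and 12.3, 17.8 and 10.4 in WT medium. KO LPS and KO medium did not overlap, WT LPS and WT medium overlapped only through WT LPS 1, and the interaction of 1.69 ± 0.48 (edgeR adjusted p = 0.0147) stayed called without any 1 library. Mrps18b, 1 of 3 members related to bacterial S18, stood at 25.1, 12.4 and 12.5 normalised CPM in libraries labelled KO LPS, 6.21, 8.38 and 8.18 in KO medium, 10.7, 5.64 and 8.10 in WT LPS and 9.43, 24.2 and 9.99 in WT medium. KO LPS lay above KO medium without overlap, WT LPS and WT medium overlapped, and the interaction of 1.97 ± 0.61 (edgeR adjusted p = 0.0219) ended without KO medium 1 (0.0508). Mrps2 had an interaction of 0.94 ± 0.29 (edgeR adjusted p = 0.0219), which ended without KO LPS 2 (0.0523) or WT medium 1 (0.0654), with no low-count filter (0.114) and scaled to the summed member counts (0.103). Antisense gene models cover 24.2% of the exon bases of Mrps27, 30.5% of those of Mrps18b, 7.61% of Mrpl27 and 4.16% of Mrpl13, and 0 of those of Mrpl39, Mrpl52, Mrpl30 and Mrps2; whether counting used strand is not given in the sources used here. Without the 4 short-leaning libraries 18 members were called, 4 higher and 14 lower. Scaled by library size alone 37 were higher and 1 lower, with the median of all genes at 1.43.

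**Figure D4:**
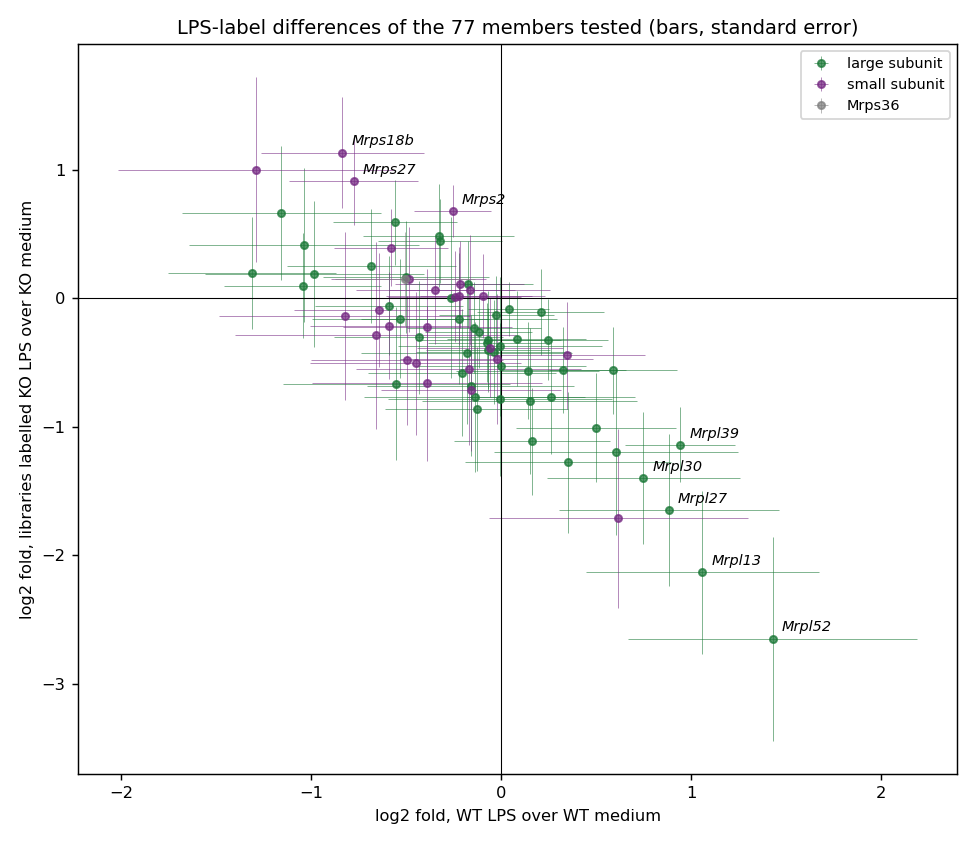
Log2 fold of LPS over medium in the libraries labelled KO (vertical) against WT (horizontal) for the 77 members tested, with standard errors; the comparisons share no library. No member lies above 0 in both, 32 lie below 0 in both, 25 lie above 0 in KO and below 0 in WT, and 20 the other way.

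The cross comparisons gave no calls. Between the libraries labelled KO medium and WT LPS, 0 of the 77 members and 0% of all genes passed (edgeR), with 0 members at an unadjusted p under 0.05, 0 called by DESeq2 and 270 of all genes at an unadjusted p under 0.05. The members' median log2 fold was 0.48, against -0.02 for all genes, with 72 of 77 folds above 0, a range from -0.23 to 1.00 and standard errors as large as 0.75 for Mrpl52. Libraries did not overlap for 1 member, which was lower, against 1.89% of all genes higher and 3.57% lower (5.46% in all). Between the libraries labelled KO LPS and WT medium, 0 members and 0% of all genes passed (edgeR), 0 members were at an unadjusted p under 0.05, 0 were called by DESeq2 and 1135 of all genes were at an unadjusted p under 0.05. The median was -0.00456 over the members (-0.29 to 0.51 when 1 library was left out) and 0.04 over all genes, with folds from -0.75 for Mrpl1 to 0.34 for Mrps34. Here the libraries of 1 member did not overlap, and it was higher, against 5.84% of all genes higher and 4.73% lower (10.6% in all). Mrpl39, the member with most calls elsewhere, had a log2 fold of 0.15 ± 0.29 in the first and -0.05 ± 0.29 in the second of these comparisons. A p that misses the threshold does not show that the groups were alike. In KO LPS against WT medium, all 13 neutrophil marker folds were above 0 (median 2.32), with 11 at an unadjusted p under 0.05 (edgeR). All 6 B cell marker folds (median 2.78, 6 at that p) and all 5 platelet marker folds (median 2.28, 4 at that p) were also above 0. Of the 10 macrophage markers, 0 were at that p.

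The balance between the subunits was set out without any scaling between libraries, as summed counts of 50 large-subunit over 26 small-subunit members, with Mrps18a and Mrps30 counted as large and Mrps36 left out. This ratio was chosen after values were seen. It was 2.37, 2.35 and 2.34 in the libraries labelled KO LPS, 3.17, 3.17 and 3.28 in KO medium, 3.04, 3.15 and 3.23 in WT LPS and 2.32, 2.46 and 2.35 in WT medium. KO LPS lay below KO medium and WT LPS above WT medium, in both cases without overlap, whereas KO medium overlapped WT LPS and KO LPS overlapped WT medium. The group means were 2.35 ± 0.0142 in KO LPS, 3.21 ± 0.0631 in KO medium, 3.14 ± 0.0943 in WT LPS and 2.38 ± 0.072 in WT medium (SD, n = 3 each). With Mrpl52 left out they were 2.30, 2.91, 2.92 and 2.32 in the same order of groups. With the 5 large-subunit members with most counts left out (Mrpl52, Mrpl30, Mrpl27, Mrpl20 and Mrpl24) they were 1.99, 2.38, 2.42 and 2.01, and as FPKM sums 2.45, 3.15, 3.19 and 2.43. The separation of KO medium and WT LPS from KO LPS and WT medium held in every library under these 3 alternatives. Members were left out by their counts, so Mrpl13 and Mrpl39, both called above, stayed in. How far the ratio rests on a few large-subunit genes was therefore not tested. The library that leaned most to short genes was highest in its group in KO LPS and WT medium and lowest in KO medium and WT LPS.

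**Figure D5:**
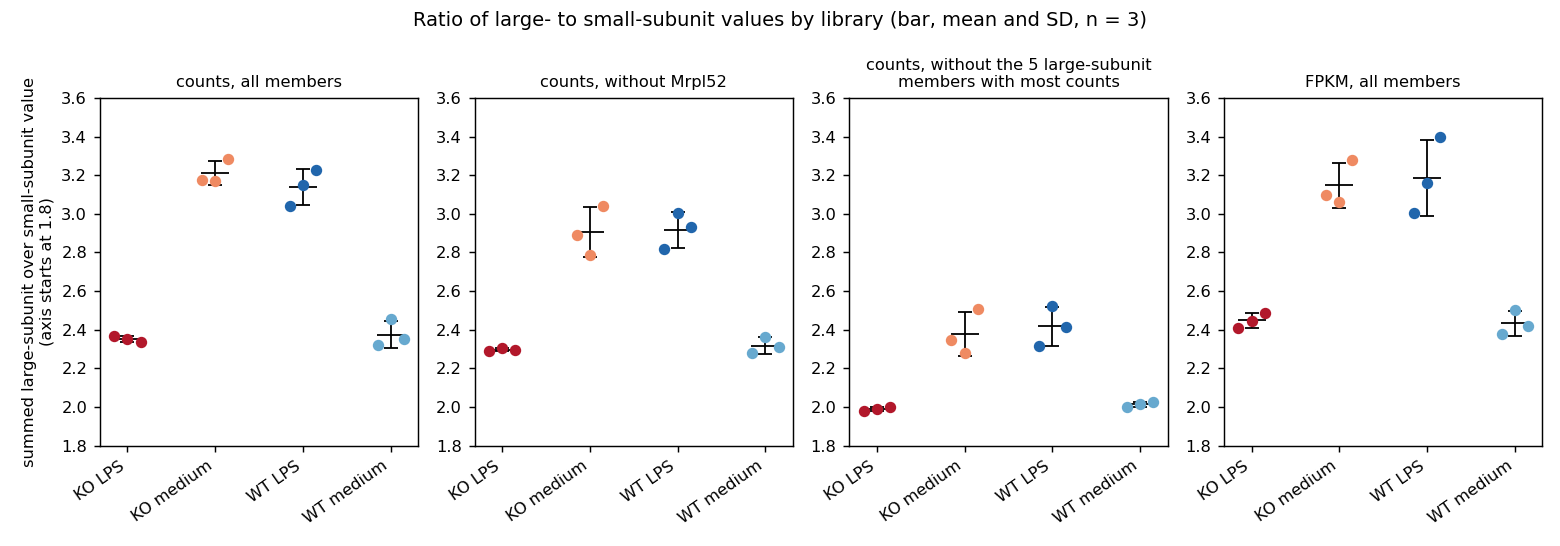
Summed large-subunit over small-subunit values by library and label group, for counts of all members, counts without Mrpl52, counts without the 5 large-subunit members with most counts, and FPKM; bars give the mean and SD (n = 3), and the axis starts at 1.8. In all panels the 6 libraries labelled KO medium or WT LPS lie above the 6 labelled KO LPS or WT medium, in the first between 3.04 and 3.28 against 2.32 to 2.46.

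The make-up of the family was also set out member by member, and the genes below are examples. Shares are parts of a fixed total in each library, so a rise in some members lowers the shares of others. Shares of all member counts did not overlap in KO LPS against KO medium for 29 members higher and 11 lower of 78. The counts were 9 higher and 21 lower in WT LPS against WT medium. They were 10 and 26 in KO medium against WT medium, and 22 and 11 in KO LPS against WT LPS. The cross comparisons gave 0 and 6 in KO medium against WT LPS, and 2 and 6 in KO LPS against WT medium. There is no such share for all genes. By normalised CPM, a different measure, libraries did not overlap for 45.8%, 33.9%, 42.6%, 38%, 5.46% and 10.6% of all genes, in the order given. Whether the members exceeded other genes in this was not tested. Mrpl52 took 2.33%, 1.37% and 1.21% of all member counts in the libraries labelled KO LPS, 6.74%, 9.23% and 5.65% in KO medium, 5.51%, 3.52% and 7.004% in WT LPS and 1.17%, 2.67% and 1.13% in WT medium. Mrpl13 took 1.79%, 0.996% and 1.18% in the libraries labelled KO LPS, 4.2%, 4.71% and 3.50% in KO medium, 3.86%, 2.72% and 3.67% in WT LPS and 1.32%, 1.88% and 1.43% in WT medium. For both genes the KO medium and WT LPS libraries all lay above those of KO LPS and WT medium. Mrpl12, the stalk protein that recruits translation factors, lay the other way, with 2.85%, 2.18% and 2.05% in the libraries labelled KO LPS, 1.18%, 1.46% and 1.04% in KO medium, 1.498%, 1.35% and 1.00% in WT LPS and 2.09%, 3.09% and 1.96% in WT medium. Its normalised CPM did not pass the test in any comparison, with the lowest edgeR adjusted p at 0.193 for the interaction. The shares of a small-subunit gene, Mrps18b, were 0.991%, 0.786% and 0.761% in the libraries labelled KO LPS, 0.221%, 0.223% and 0.504% in KO medium, 0.405%, 0.425% and 0.455% in WT LPS and 0.712%, 0.737% and 0.770% in WT medium, again without overlap between KO LPS and KO medium or WT LPS and WT medium.

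Members with a known role of their own did not pass the test in the 4 comparisons between groups that differ in 1 label. At the stalk, Mrpl10 had 25.8 to 31.9 normalised CPM in libraries labelled KO LPS, 19.9 to 38.9 in KO medium, 21.8 to 36.0 in WT LPS and 17.8 to 36.1 in WT medium, and Mrpl11, at the stalk base, had 23.5 to 36.0, 22.2 to 71.8, 14.9 to 36.3 and 15.2 to 52.9 in the same order of groups. All of their groups overlapped pairwise. Mrpl58, a peptidyl-tRNA hydrolase built into the large subunit that frees stalled chains, had 13.9 to 21.9 normalised CPM in libraries labelled KO LPS, 9.97 to 27.7 in KO medium, 8.37 to 21.8 in WT LPS and 9.13 to 29.6 in WT medium. Mrpl44, with a fold like that of RNase III, had a log2 fold of 0.81 ± 0.34 in the libraries labelled KO medium against WT medium (edgeR adjusted p = 0.0959). For Mrps12, at the decoding centre, and Mrps28, no log2 fold between groups that differ in 1 label was above 0.71 in size. Of the S18 relatives, Mrps18a sits in the large subunit and Mrps18c in the small. Mrps18c had a log2 fold of -1.71 ± 0.70 between the libraries labelled KO LPS and KO medium (edgeR adjusted p = 0.0825), and shares 23.2% of its exon bases on the same strand with the gene model Gm43511. Mrps30, a large-subunit protein despite its name, had log2 folds between -0.32 and 0.45. Mrps36, now known as a subunit of 2-oxoglutarate dehydrogenase, had log2 folds between -0.51 and 0.61.

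Other genes of mitochondrial translation were counted in the same fit. Of 20 mitochondrial aminoacyl-tRNA synthetases and related enzymes, which load tRNAs with amino acids, 5 were higher and 0 lower in the libraries labelled KO LPS against WT LPS, and 1 was higher and 6 lower in KO medium against WT medium. With LPS against medium, 6 were higher and 0 lower in the libraries labelled KO, and 0 higher and 5 lower in WT. The shares of all genes called in these comparisons, in the order given, were 10.4% higher and 13.7% lower, 14% higher and 12.3% lower, 15.1% higher and 15.3% lower, and 11.9% higher and 6.46% lower. Vars2, the valine enzyme, stood at 4.93, 8.27 and 9.18 normalised CPM in libraries labelled KO LPS, 2.83, 2.62 and 1.62 in KO medium, 2.17, 3.10 and 1.56 in WT LPS and 7.16, 5.06 and 6.23 in WT medium. Its KO LPS and WT medium libraries were all above those of the other two groups, with log2 folds of 1.70 ± 0.38 for KO LPS over WT LPS (edgeR adjusted p = 0.00797) and 1.66 ± 0.38 for KO LPS over KO medium (0.00745). Nars2, the asparagine enzyme, had log2 folds of 2.19 ± 0.56 (edgeR adjusted p = 0.0158) and 2.35 ± 0.58 (0.0104) in these comparisons. Lars2, the leucine enzyme, was the exception, higher in the libraries labelled KO medium than in WT medium by 2.96 ± 0.78 (edgeR adjusted p = 0.0164), with 2065, 741 and 257 normalised CPM in KO medium against 83.3, 231 and 80.7 in WT medium. That call ended without KO medium 1, WT medium 1 or WT medium 3 (highest edgeR adjusted p = 0.0915), and that of Nars2 in KO LPS over WT LPS ended without WT LPS 1 (0.0541). Leaving out 1 library changed these counts: between 2 and 6 enzymes were higher in KO LPS against WT LPS (2 without WT LPS 1 or WT LPS 3), and between 2 and 9 lower in KO medium against WT medium (2 without KO medium 1, KO medium 3 or WT medium 1). For LPS against medium the counts lay between 3 and 7 higher in the libraries labelled KO, and between 0 and 5 lower in WT. Without the 4 short-leaning libraries 3 were higher and 1 lower in KO LPS against WT LPS, and 1 higher and 8 lower in KO medium against WT medium.

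Of 26 factors for assembly of the mitochondrial ribosome and modification of its rRNA, 5 were higher and 0 lower in the libraries labelled KO LPS against KO medium, 2 higher and 0 lower in KO LPS against WT LPS, 0 higher and 2 lower in KO medium against WT medium, and 0 higher and 1 lower in WT LPS against WT medium. Of all genes, 15.1% were higher and 15.3% lower in the first of these comparisons, 10.4% higher and 13.7% lower in the second, 14% higher and 12.3% lower in the third, and 11.9% higher and 6.46% lower in the last. Without the 4 short-leaning libraries the first of these counts was 7 higher and 3 lower, and the second 5 higher and 1 lower. When 1 library was left out, the first lay between 1 higher (without KO LPS 3) and 5 higher, and the second between 0 (without KO LPS 2 or WT LPS 3) and 3 higher. The third lay between 0 and 1 lower, with 0 without KO medium 1, so its 2 calls were in no case both kept. The last lay between 0 and 2 lower, with 0 without WT LPS 2 or 3, or WT medium 2 or 3. Mtg1, a GTPase of large-subunit assembly, was called in all 4, at 8.60, 9.06 and 8.67 normalised CPM in libraries labelled KO LPS, 3.38, 3.33 and 2.22 in KO medium, 4.34, 2.87 and 2.08 in WT LPS and 5.34, 11.8 and 5.51 in WT medium. Its log2 folds were 1.56 ± 0.40 for KO LPS over KO medium (edgeR adjusted p = 0.0123) and -1.28 ± 0.39 for WT LPS over WT medium (0.0409). The KO LPS over KO medium call stayed without any 1 library, and the WT call was lost on leaving out WT medium 2 or 3, or WT LPS 2 or 3 (highest edgeR adjusted p = 0.144). Its call for KO LPS over WT LPS ended without KO LPS 2 or WT LPS 3 (highest 0.0808), and that for KO medium over WT medium without KO medium 1, 2 or 3, or WT medium 2 (highest 0.0775). Of 11 translation factors, Mrrf, which recycles ribosomes, was called in all 4 comparisons, with 8.55, 8.27 and 7.07 normalised CPM in libraries labelled KO LPS, 3.38, 3.03 and 1.88 in KO medium, 3.99, 3.43 and 2.90 in WT LPS and 6.29, 7.98 and 6.02 in WT medium. For Mrrf the KO LPS and WT medium libraries all lay above those of KO medium and WT LPS. Guf1, an elongation factor relative, was the other factor called, with a log2 fold of -1.25 ± 0.38 for WT LPS over WT medium (edgeR adjusted p = 0.0389). The WT LPS over WT medium calls of Mrrf and Guf1 ended without any 1 of the 6 libraries (edgeR adjusted p from 0.0501 to 0.162), and that of Mrrf for KO LPS over WT LPS ended without KO LPS 2 or WT LPS 3 (highest 0.074). The calls of Mrrf for KO LPS over KO medium and for KO medium over WT medium stayed without any 1 library.

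Of 13 genes for transcription of mitochondrial DNA and its regulation, 3 were higher and 4 lower in the libraries labelled KO LPS against KO medium, and 0 higher and 4 lower in WT LPS against WT medium. In KO LPS against WT LPS 2 were higher and 1 lower, and in KO medium against WT medium 2 were higher and 4 lower. When 1 library was left out, these counts lay between 2 and 3 higher and 0 and 4 lower in KO LPS against KO medium, 0 and 1 higher and 1 and 4 lower in WT LPS against WT medium, 0 and 3 lower in KO LPS against WT LPS with 2 higher in each case, and 0 and 3 higher and 4 and 5 lower in KO medium against WT medium. The first had 0 lower without KO LPS 2 or KO LPS 3, and the second 1 lower without WT LPS 3 or WT medium 1. The shares of all genes called were those given above. Polrmt, the mitochondrial RNA polymerase, stood at 13.3, 18.3 and 19.0 normalised CPM in libraries labelled KO LPS, 5.27, 4.44 and 2.64 in KO medium, 5.04, 6.16 and 2.01 in WT LPS and 15.4, 10.5 and 14.8 in WT medium. Pprc1, a coactivator related to PGC-1, stood at 47.0, 36.4 and 35.5 normalised CPM in libraries labelled KO LPS, 10.6, 12.2 and 10.2 in KO medium, 15.5, 22.7 and 14.9 in WT LPS and 35.1, 32.7 and 30.2 in WT medium. Both genes separated KO LPS and WT medium from KO medium and WT LPS in every library. Their log2 folds for KO LPS over KO medium were 2.03 ± 0.41 (edgeR adjusted p = 0.00381) and 1.85 ± 0.25 (0.000392). Both calls stayed without any 1 library. For WT LPS over WT medium, Polrmt had a log2 fold of -1.62 ± 0.41 (edgeR adjusted p = 0.0164), which was lost when WT medium 1 or WT medium 3 was left out (highest 0.0592). Gabpa, whose product binds ETS letters with its partner, stood at 22.6, 19.3 and 13.6 normalised CPM in libraries labelled KO LPS, against 44.4, 35.4 and 46.5 in WT LPS. The log2 fold was -1.18 ± 0.30 (edgeR adjusted p = 0.0146), and the call ended without KO LPS 2, KO LPS 3 or WT LPS 3 (highest 0.0699).

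With all libraries, the products of mitochondrial DNA and the neighbouring gene groups had few or no calls. Of 11 mitochondrially encoded mRNAs 0 were called in any of the 4 comparisons by edgeR (DESeq2 called 2 lower in KO LPS against KO medium and 1 lower in WT LPS against WT medium), with 2 at an unadjusted p under 0.05 in KO LPS against KO medium and 0 in the others. The rRNAs of the mitochondrial ribosome, mt-Rnr1 and mt-Rnr2, were called in none of them by edgeR, with 2 at an unadjusted p under 0.05 in KO LPS against KO medium and 1 in KO medium against WT medium, where DESeq2 called 1 each, and both had a negative interaction. It was -2.26 ± 0.79 for mt-Rnr1 (edgeR adjusted p = 0.0372) and -2.93 ± 1.02 for mt-Rnr2 (0.0367), and each call ended in 9 of 22 other settings, 8 of them with 1 library left out (KO LPS 2 or 3, KO medium 1 or 2, WT LPS 1 or 3, or WT medium 1 or 3). The smaller one, mt-Rnr1, stood at 468, 236 and 207 normalised CPM in libraries labelled KO LPS, 755, 1033 and 452 in KO medium, 875, 306 and 449 in WT LPS and 164, 512 and 164 in WT medium. KO LPS and KO medium overlapped through KO LPS 1, and WT LPS and WT medium through WT medium 2. Of 5 subunits of the ribosome with other names that were in the table, 77 cytosolic ribosomal proteins and 63 nuclear respiratory chain subunits, 0 were called in any of the 4 comparisons by edgeR. At an unadjusted p under 0.05 there were 0 of the 5 in any comparison, at most 3 of the 77 and at most 3 of the 63, and DESeq2 called 0 of the 5, at most 1 of the 77 and at most 2 of the 63. These counts of 0 were not kept when libraries were left out. No share of all genes called is given for those fits, so their counts are not set against one. Without WT medium 2, 1 of the 5, 10 of the 77, 24 of the 63, 1 of the mRNAs and both rRNAs were higher in KO medium against WT medium, and without KO LPS 1 both rRNAs were lower in KO LPS against KO medium. Without the 4 short-leaning libraries, 23 of the 63 were higher in KO medium against WT medium and 10 lower in KO LPS against KO medium, 6 of the 77 were higher in KO LPS against WT LPS, and 3 mRNAs and both rRNAs were lower in KO LPS against KO medium. The median log2 fold between the libraries labelled KO LPS and KO medium was -0.54 for the cytosolic ribosomal proteins and -0.72 for the respiratory chain subunits, against -0.30 for the mitochondrial ribosomal proteins.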

How the data were processed

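The authors deposited, per the file headers, a table of read counts per gene and FPKM values for 12 libraries. Reads were placed on mm10, per the submitters' processing notes; for the aligner, counter, annotation and strand setting nothing is stated in the sources used here. The labels name 2 library kits without saying which was used. Counts were tested with edgeR 4.0.16 (quasi-likelihood, TMM scaling, low-count filter) in R 4.3.3, in 1 fit over the 4 groups, with Benjamini-Hochberg adjustment over 13773 genes and calls at adjusted p under 0.05. DESeq2 1.42.0, other scalings, filters, a gene-length offset and leaving out libraries were alternatives, and the fit was tested on simulated data. Deposited FPKM served only to compare levels between genes. Positions came from GENCODE M21, which matched 54409 gene IDs. No 2 libraries had near-identical counts. Gene symbols matching the naming rule were members, and named genes were those called, those with a listed role and the extremes in level or spread. Members, lists and tests were chosen with earlier results of these data known.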

Additional observations from a re-analysis of the deposited data

Results flagged for a closer look

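For 8 members the LPS effect in the libraries labelled KO differed from that in WT by the edgeR interaction test, with Benjamini-Hochberg adjusted p under 0.05. On the log2 scale the KO effect minus the WT effect was -4.08 for Mrpl52, -3.19 for Mrpl13, -2.53 for Mrpl27, -2.14 for Mrpl30 and -2.08 for Mrpl39, all large-subunit genes. It was 1.97 for Mrps18b, 1.69 for Mrps27 and 0.94 for Mrps2, all small-subunit genes. Nlrc3 and Nos2 went against the labels of the KO libraries, so both the size and the sign of each of these values rest on those labels. In the comparisons of KO medium with WT LPS and of KO LPS with WT medium, 0 genes were called.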

How the results depend on the processing

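The number of members called depended on the setting in every comparison that had calls. For KO LPS against WT LPS, with 1 call, there were 2 with RLE size factors, 20 with library size only, 2 with at least 5 CPM in 3 libraries, 3 with DESeq2, 2 with the replicate block, 0 with the compared groups only, 3 scaled to the summed member counts, 6 with a gene-length offset and 8 without the short-leaning libraries. For KO medium against WT medium, with 3 calls, the same kinds of setting gave 19 with library size only (median log2 fold -0.53), 6 with DESeq2, 1 with the compared groups only, 8 scaled to the summed member counts, 10 with the length offset and 16 without the short-leaning libraries. For WT LPS against WT medium, with 1 call, they gave 20 with library size only (median -0.72), 2 with at least 5 CPM, 2 with DESeq2, 0 with the compared groups only, 5 with the length offset and 7 without the short-leaning libraries. For KO LPS against KO medium, with 4 calls, they gave 18 with library size only (median 0.46), 8 with no low-count filter, 10 with DESeq2, 8 with the compared groups only, 8 scaled to the summed member counts, 15 with the length offset and 15 without the short-leaning libraries. For the interaction, with 8 calls, they gave 38 with library size only (median 1.23), 16 with DESeq2, 21 scaled to the summed member counts, 22 with the length offset and 18 without the short-leaning libraries. The cause was not tested. No share of all genes called is given for these settings, so these counts are not set against one. Both cross comparisons had 0 calls under every setting run.

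With the shared column numbers as a block, calls numbered 1 (Mrpl23, higher, in place of Mrpl39), 6, 1, 11 and 14 in KO LPS against WT LPS, KO medium against WT medium, WT LPS against WT medium, KO LPS against KO medium and the interaction.

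When 1 library was left out, calls numbered 0 to 3 for KO LPS against WT LPS, 0 to 18 for KO medium against WT medium, 0 to 4 for WT LPS against WT medium, 0 to 9 for KO LPS against KO medium, 5 to 14 for the interaction and 0 to 0 for the cross comparisons. The median log2 fold lay between -0.07 and 0.47, -0.09 and 0.76, -0.53 and 0.32, -0.52 and -0.01 and -0.59 and 0.20 in that order, and between 0.17 and 0.79 for KO medium against WT LPS and -0.29 and 0.51 for KO LPS against WT medium. The large over small subunit ratio lay between 2.35 and 2.36 in KO LPS, 3.17 and 3.23 in KO medium, 3.09 and 3.19 in WT LPS and 2.33 and 2.40 in WT medium. It was 2.30, 2.91 and 2.92 in KO LPS, KO medium and WT LPS without Mrpl52, and 1.99, 2.38, 2.42 and 2.01 in KO LPS, KO medium, WT LPS and WT medium without the 5 large-subunit members with most counts, and 2.45 in KO LPS as FPKM sums. Of 18 correlations between same-numbered libraries, 8 were over 0.1 (-0.61 to 0.53), so the numbers were not taken as pairs, and the replicate block gave 2, 1, 5 and 11 calls in KO medium against WT medium, WT LPS against WT medium, KO LPS against KO medium and the interaction. Under it the WT call was Mrpl42, lower (-1.29, edgeR adjusted p = 0.0387), with Mrpl39 lost (0.0702), and Mrpl13 was lost in KO medium against WT medium (0.055). The length offset, the summed-count scaling, the ratio alternatives, the block of shared column numbers and the removal of short-leaning libraries were chosen after seeing the data. With 3 libraries a group, folds of members with a large spread were measured coarsely.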
